A study of Mus musculus with 9 samples.

Results

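The UDP-glucuronosyltransferases (Ugt genes) and the cytosolic sulfotransferases (Sult genes) of mouse liver were followed through fibrosis caused by thioacetamide (TAA) and through the recovery after it. Genes were taken by symbol, as those beginning with Ugt1a, Ugt2a, Ugt2b or Ugt3a or with Sult and a digit, which gave 42 of the 21873 genes in the deposited expression table. They comprise 21 Ugt genes (9 Ugt1a, 3 Ugt2a, 7 Ugt2b and 2 Ugt3a) and 21 Sult genes (6 Sult1, 9 Sult2, 2 Sult3, 1 Sult4, 1 Sult5 and 2 Sult6). Liver RNA of 9 male C57BL/6 mice, 8 weeks old at the start, was sequenced as paired-end reads of 150 bp, with 1 library per mouse and 3 mice per group. The control group received saline by intraperitoneal injection for 8 weeks, in the volume used for TAA. The TAA group received TAA at 200 mg/kg every 3 days over the same 8 weeks. Livers of both groups were taken 72 h after the last injection. The recovery group had the same TAA course and then 8 further weeks without injections, so its mice were 8 weeks older at collection, and recovery and age cannot be told apart, because controls of the same age were not among the libraries.

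Ugt enzymes sit in the membrane of the endoplasmic reticulum and join a sugar, mostly glucuronic acid taken from UDP-glucuronic acid, to bilirubin, steroids, bile acids and drugs. Sult enzymes work in the cytosol and transfer a sulfate group from the donor PAPS (3'-phosphoadenosine 5'-phosphosulfate) to phenols, steroids and bile acids. Both reactions make their substrates more soluble in water, and the conjugates leave the hepatocyte through transporters into bile or blood. In mice several Sult genes differ in level between male and female livers.

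Levels are given as scaled FPKM. FPKM (fragments per kilobase of gene and per M (mega) mapped fragments) were computed by the authors, and each library was divided here by a factor, the median ratio to a reference over the 14005 genes above 0 in all 9 libraries. The factors were 0.827, 0.855 and 0.878 in the control mice, 1.29, 1.32 and 1.38 in the TAA mice and 0.899, 0.893 and 0.907 in the recovery mice. This scaling lowers TAA levels relative to control levels by a log2 shift of 0.64, and it raises recovery levels relative to TAA levels by 0.56. Every fold below is relative to that shift, and 2 other scalings (FPKM as deposited, and quantile normalization) are named where they change the call of a member. The files hold no read counts. From the steps between low FPKM values the depth was estimated at 26.8, 35.3 and 32.6 M fragments in the control mice, 40.5, 38.7 and 38.4 M in the TAA mice and 34.6, 40.6 and 40.3 M in the recovery mice.

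Of the 42 genes, 25 were above 0 in all 9 libraries and 4 were at 0 in all of them (Sult1c1, Sult2a3, Sult3a2 and Ugt2a2). Groups were tested with limma after 0.1 was added to each scaled FPKM and the log2 taken, and a gene was tested where its FPKM averaged 0.1 or more over the 6 libraries compared. A gene is called when its adjusted p (Benjamini-Hochberg over all genes tested) is under 0.05 and its fold change at least 2. In TAA against control 31 members were tested and 11 were not, namely the 4 at 0 with Sult2a4, Sult2a5, Sult2a6, Sult3a1, Sult6b1, Sult6b2 and Ugt2a1. These 11 genes reached at most 0.174 scaled FPKM in any library (Sult2a5 in the first TAA mouse). In that comparison 25 of the 31 passed the filter in both groups, whereas Sult1e1, Sult2a1, Sult2a2, Sult2b1 and Sult4a1 passed through the TAA group alone and Sult2a7 through the control group alone, so these 6 had to differ between the groups to be tested.

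The first comparison, TAA against control, asks which conjugation genes differ in the fibrotic liver. Sult2a8, both Ugt3a genes, Ugt2b1, Ugt2a3 and Ugt1a1 fell in the TAA mice and kept their calls under all 3 scalings. Ugt2b37 and a few Sult genes that were at or near 0 in the control mice rose, Sult1e1 and Sult2a2 among them. Of 31 members tested, 6 were called higher and 11 lower, beside 17.2% of all 14250 genes tested called higher and 7.93% called lower. The median log2 difference was -0.76 over the members and 0.03 over all genes tested. Of the 6 called higher, 5 passed the filter through the TAA group alone. In 7 members every TAA library was above every control library, and in 15 every TAA library was below, beside 33.0% and 30.6% of all genes tested.

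The second comparison, recovery against TAA, asks what differs once injections stop, and it shares the TAA libraries with the first. Of 31 members tested, 11 were called higher and 6 lower, beside 7.01% of all 14284 genes called higher and 14.5% called lower. The median log2 difference was 0.62 over the members and -0.02 over all genes tested. Every recovery library was above every TAA library in 15 members and below in 7, beside 28.9% and 31.3% of all genes. Of the 6 called lower, Sult2a1, Sult2a2, Sult2b1 and Sult4a1 passed through the TAA group alone, and of the 11 called higher Sult2a7 passed through the recovery group alone.

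The third comparison, recovery against control, asks which differences remain 8 weeks after the last injection, and it shares libraries with both others. Of 27 members tested, limma called 0 higher and 1 lower (Sult2a8), beside 0.736% and 0.511% of all 13315 genes tested. At an unadjusted p under 0.05 the counts were 3 higher and 7 lower, and the share of all genes under that limit is not given here. Recovery libraries were all above the control libraries in 2 members and all below in 8, beside 14.7% and 16.3% of all genes. The median log2 difference was -0.13 over the members and 0.01 over all genes tested. Sult1e1 passed the filter there through the recovery group alone, and Sult2a1, Sult2a2, Sult2b1 and Sult4a1 were not tested.

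Summed over families, the levels show how the total was made up in each mouse. Scaled FPKM of the 21 Ugt genes added up to 3135, 2999 and 2685 in the control mice, 1359.6, 1378 and 1124 in the TAA mice and 2632, 2184 and 2506 in the recovery mice. The TAA mean was 0.438 times the control mean and no library overlapped, but this ratio was 0.681 with FPKM as deposited and 0.882 after quantile normalization, where the groups overlapped. For the 21 Sult genes the sums were 902, 739 and 791 in the control mice, 172, 196 and 139 in the TAA mice and 514, 513 and 491 in the recovery mice. Here the TAA mean was 0.208 times the control mean, and 0.324 and 0.356 under the other scalings, without overlap under any of the 3. Recovery means were 0.830 times the control mean for Ugt and 0.624 times for Sult. The Ugt sums of recovery and control did not overlap as scaled here but did under both other scalings. A lower level in whole liver can mean fewer hepatocytes or less RNA per hepatocyte, and these cannot be told apart.

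**Figure D1:**
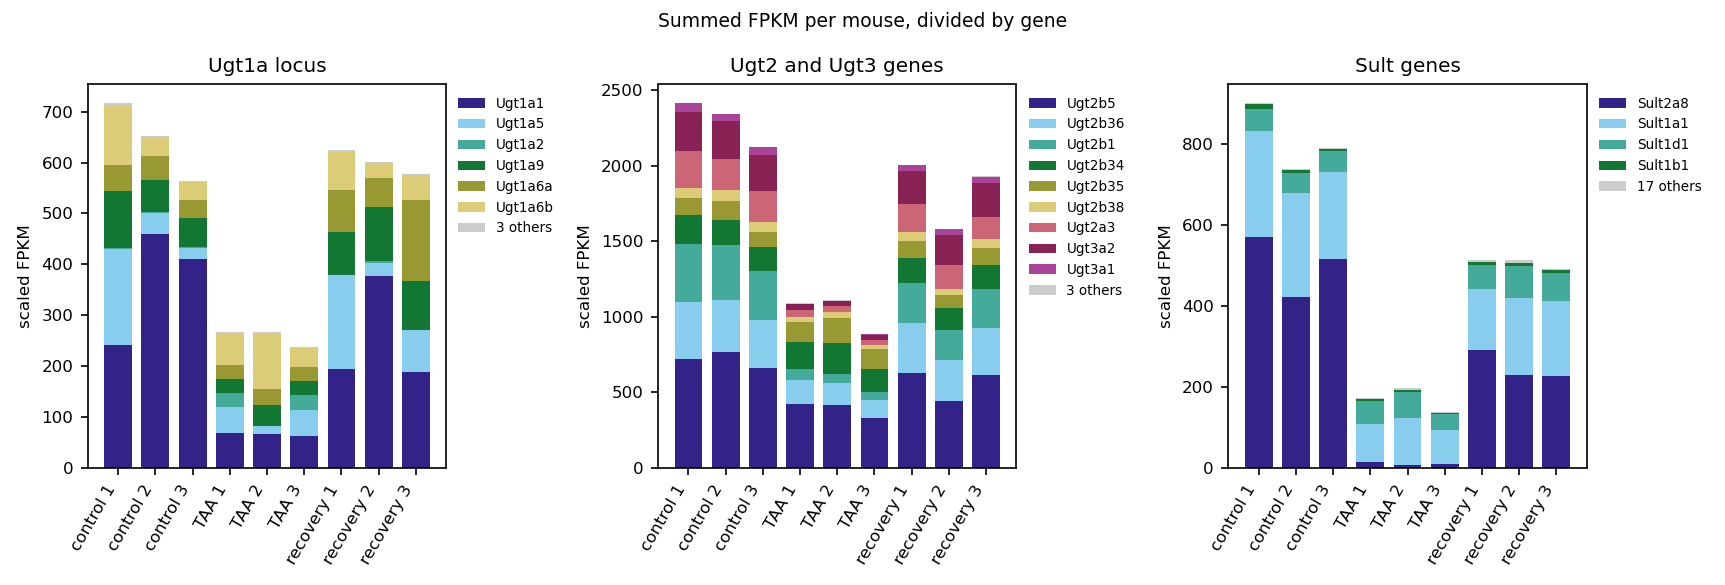
Stacked bars give the summed scaled FPKM of the Ugt1a genes, the Ugt2 and Ugt3 genes and the Sult genes in each of the 9 mice, with colours for single genes or groups of genes. The Sult bars have a mean of 811 in the control mice, 169 in the TAA mice and 506 in the recovery mice, while the direction of the Ugt2b sum in TAA against control flips after quantile normalization (ratio 1.19).

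The families did not move by the same factor. The Ugt3a sum was 319, 299 and 286 in the control mice, 42.0, 32.3 and 35.6 in the TAA mice and 257, 241 and 269 in the recovery mice, a TAA mean of 0.122 times the control mean. For the Ugt2a family, which was Ugt2a3 with next to nothing else, this ratio was 0.186, and for the Ugt1a family 0.399. These 3 families kept their direction and did not overlap under the other scalings. The Ugt2b sum was 1853, 1841 and 1625 in the control mice, 1007, 1036 and 816 in the TAA mice and 1565, 1183 and 1512 in the recovery mice. Its TAA mean was 0.537 times the control mean as scaled here and 0.835 times with FPKM as deposited, but 1.19 times after quantile normalization, so its direction depends on the scaling. The same holds for recovery against TAA, where the Ugt2b ratio was 1.49, 1.01 and 0.742 in the same order. The Sult2 sum had a TAA to control ratio of 0.0233 and the Sult1 sum 0.514, and the Sult1 groups overlapped under both other scalings.

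The 9 Ugt1a genes lie head to tail on the plus strand of chromosome 1, at chr1:88055388-88220002 (GRCm38), in 165 kb. Each has a first exon of its own, which codes for the part of the enzyme that binds the substrate, and all are joined to the same later exons. The stretch around that join is shown because it is the reason why reads cannot always be given to 1 gene. In the GENCODE M21 coding sequences below, 5′ to 3′, capitals mark the 40 bases common to all 9 genes, of which the first 2 lie in exon 1 and the rest in the common exon 2 at chr1:88215044-88215175.
Ugt1a1: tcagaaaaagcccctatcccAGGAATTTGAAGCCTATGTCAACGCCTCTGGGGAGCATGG
Ugt1a2: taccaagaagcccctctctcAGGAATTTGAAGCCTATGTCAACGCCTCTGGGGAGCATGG
Ugt1a5: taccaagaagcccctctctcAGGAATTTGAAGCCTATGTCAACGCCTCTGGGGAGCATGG
Ugt1a6a: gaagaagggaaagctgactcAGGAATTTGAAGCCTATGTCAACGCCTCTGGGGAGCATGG
Ugt1a6b: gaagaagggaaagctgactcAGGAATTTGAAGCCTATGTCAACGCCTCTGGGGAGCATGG
Ugt1a9: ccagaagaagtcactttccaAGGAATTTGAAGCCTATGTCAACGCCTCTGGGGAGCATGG
The first exons end at position 88212871 for Ugt1a1, 88201500 for Ugt1a2, 88166903 for Ugt1a5, 88139331 for Ugt1a6a, 88107799 for Ugt1a6b and 88071678 for Ugt1a9. Ugt1a2 and Ugt1a5 have the same 60 letters here, and so do Ugt1a6a and Ugt1a6b, whose whole coding sequences are 98.4% identical. The 740 last coding bases are common to all 9. Between 50.3% and 60.6% of each gene's exon bases are shared with the other 8 genes, and 49.1% to 65.4% of the windows of 150 bases in each transcript also occur in another member. How reads on the shared exons were assigned is not given in the sources used here. The level of a single Ugt1a gene is therefore uncertain, and the sum over the locus is the firmer value.

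That sum was 718, 653 and 563 in the control mice, 267, 267 and 237 in the TAA mice and 625, 601 and 577 in the recovery mice. TAA mice were below all others, and recovery and control mice overlapped. Within a group the sum differed between mice by 1.27-fold in the control, 1.12-fold in the TAA and 1.08-fold in the recovery group, from the lowest to the highest mouse. Ugt1a5 alone differed by 8.56-fold, 3.34-fold and 7.14-fold, and Ugt1a2 by 1.41-fold, 104-fold and 15.1-fold in the same order. Both thus varied more between mice of 1 group than the sum did, while Ugt1a1 in the TAA group, at 1.09-fold, varied less.

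Ugt1a1 (ENSMUSG00000089960), the enzyme that conjugates bilirubin, had the highest mean level of the locus over the 9 mice, though not in the TAA group, where Ugt1a6b made up 27.3% of the locus sum and Ugt1a1 25.3%. Its scaled FPKM were 241, 459.8 and 411 in the control mice, 67.6, 65.8 and 61.8 in the TAA mice and 193, 376 and 189 in the recovery mice. The TAA mice lay close together and below all others, while recovery and control mice overlapped. Ugt1a1 fell in TAA against control, with a log2 difference of -2.46 (SE 0.22, adjusted p 9.88e-05), and was higher in recovery than in TAA by 1.88 (SE 0.25, adjusted p 0.000568). It was not called in recovery against control, at -0.58 (adjusted p 0.340). Its share of the locus sum was 57.5% in the control and 42.1% in the recovery group. Ugt1a5 (ENSMUSG00000089943) had 189.8, 41.8 and 22.2 in the control mice, 51.3, 15.4 and 50.8 in the TAA mice and 185, 25.9 and 81.1 in the recovery mice. All 3 groups overlapped, and no comparison called it, though recovery against TAA did so without the second recovery mouse, at 1.84 (adjusted p 0.0433).

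Ugt1a9 (ENSMUSG00000090175), which acts on phenols and many drugs, had 113, 63.7 and 58.5 in the control mice, 25.7, 41.4 and 27.8 in the TAA mice and 84.1, 107 and 96.6 in the recovery mice. TAA mice were the lowest and recovery mice lay within the control range. The log2 difference was -1.27 (SE 0.28, adjusted p 0.00601) in TAA against control and 1.62 (SE 0.18, adjusted p 0.000277) in recovery against TAA. The call in TAA against control was lost without the first control mouse, at -0.98 (adjusted p 0.00731), and under both other scalings, at -0.64 and -0.78. Ugt1a6a and Ugt1a6b encode forms that act on small phenols. Ugt1a6a (ENSMUSG00000054545), chosen after its values were seen, had 51.0, 47.3 and 34.8 in the control mice, 28.9, 31.5 and 26.6 in the TAA mice and 82.2, 56.1 and 159.8 in the recovery mice. In TAA against control its log2 difference of -0.60 (adjusted p 0.0116) was under the fold limit, and its direction flipped to 0.04 with FPKM as deposited. Recovery mice were above all others, the third of them by far, with a call in recovery against TAA at 1.64 (SE 0.33, adjusted p 0.00433) and none in recovery against control at 1.04 (adjusted p 0.143).

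Ugt1a6b (ENSMUSG00000090145), also chosen after its values were seen, had 117, 38.2 and 34.4 in the control mice, 62.1, 110.1 and 38.1 in the TAA mice and 76.3, 30.3 and 48.2 in the recovery mice. The groups overlapped throughout, and the log2 differences of 0.25 in TAA against control and -0.41 in recovery against TAA were not called. So was Ugt1a2, which had 0.356, 0.252 and 0.316 in the control mice, 28.7, 0.291 and 30.3 in the TAA mice and 0.609, 3.92 and 0.259 in the recovery mice. The second TAA mouse was at the control level, and the other two were high. It was not called in TAA against control, at 4.11 (SE 1.53, adjusted p 0.0532), but it was called with FPKM as deposited at 4.65 (adjusted p 0.0271), in a fit on all 9 libraries at an adjusted p of 0.0417 and without the second TAA mouse at 6.19 (adjusted p 1.24e-05). Recovery against TAA gave -2.80 (adjusted p 0.201) with all mice and -4.88 (adjusted p 0.00566) without that mouse. The remaining 3 genes, Ugt1a7c, Ugt1a8 and Ugt1a10, lay between 0.0610 and 2.66 scaled FPKM and were not called as scaled here. Ugt1a8 was called lower in TAA than in control without the second TAA mouse, at -1.21 (adjusted p 0.0275), and after quantile normalization, at -1.75 (adjusted p 0.00654), which also called it higher in recovery than in TAA, at 1.37 (adjusted p 0.0223).

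**Figure D2:**
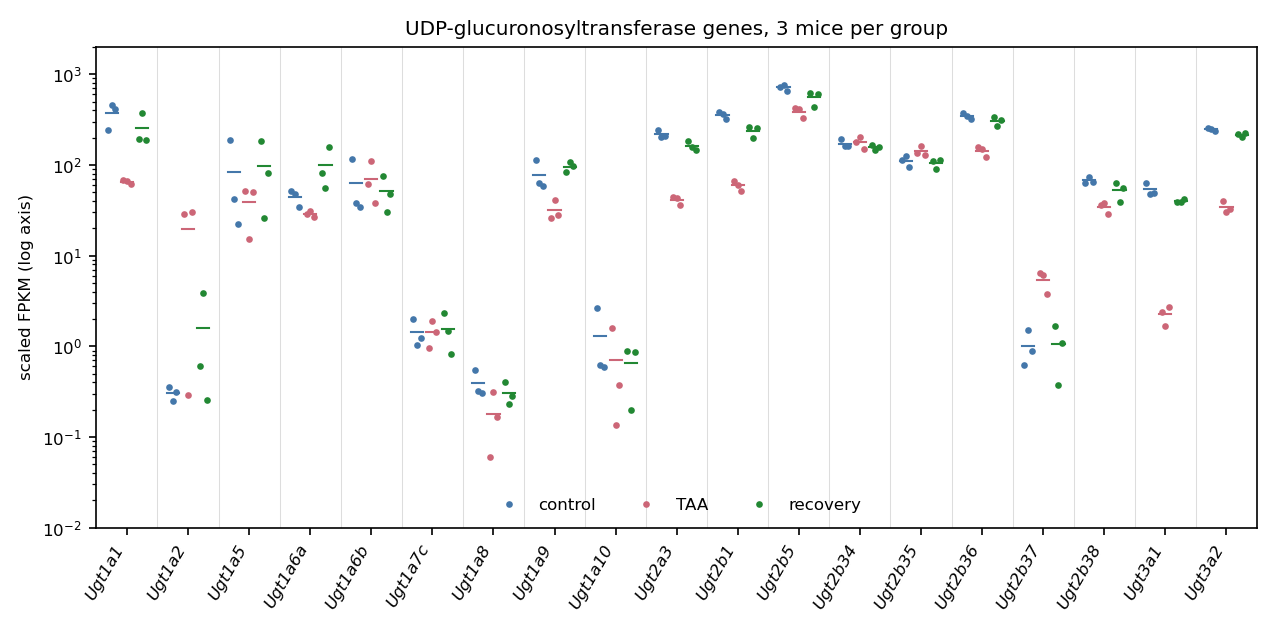
Scaled FPKM of 19 Ugt genes on a log axis, with 1 dot per mouse, colours for the control, TAA and recovery group, and bars at the group means. Ugt3a1 shows the widest gap between the TAA mice (1.66 to 2.70) and the control mice (47.7 to 63.9), and Ugt1a2 splits the TAA mice (0.291 against 28.7 and 30.3), while the direction of Ugt2b5 and Ugt1a6a in TAA against control depends on the scaling.

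The 10 Ugt2 genes lie together at chr5:86889767-87490871 (GRCm38). Their enzymes act on steroids, bile acids and drugs such as morphine. Apart from Ugt2a1 and Ugt2a2, which share exons, each has exons of its own, and coding sequences of the Ugt2 genes are 65.5% to 97.0% identical over 45 pairs. The closest pair is Ugt2b5 and Ugt2b38, at 97.0%. Of the windows of 150 bases in the transcript, 19.5% in Ugt2b5 and 19.2% in Ugt2b38 also occur in another member, and 0% in Ugt2b37. Reads from the windows in common cannot be told apart by their sequence.

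Members of the Ugt2b family moved in opposite directions, and their promoters are shown for that reason. Promoter sequences (250 bases before to 50 after the start, RefSeq, GRCm38.p6) were held for 36 of the 42 members, 39 promoters in all. The letters GTTANANNTTAAC were taken from the 7 Ugt2b promoters after the sequences were seen, with N where they differ, so all 7 hold them by construction. On either strand they also occurred in the promoter of Ugt3a1, which makes 8 of 19 Ugt promoters, beside 0 of 20 Sult promoters and 30 of all 32851 promoters (0.0913%). They resemble the sequence bound by HNF1 factors, which are transcription factors of the hepatocyte. The stretches are written 5′ to 3′ on the strand of the gene, with these letters in capitals.
Ugt2b1: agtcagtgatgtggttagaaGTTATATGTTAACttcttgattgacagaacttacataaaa
Ugt2b5: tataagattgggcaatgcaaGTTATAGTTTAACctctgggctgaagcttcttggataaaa
Ugt2b34: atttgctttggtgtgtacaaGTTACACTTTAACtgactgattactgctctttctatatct
Ugt2b35: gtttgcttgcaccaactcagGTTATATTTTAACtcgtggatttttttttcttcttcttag
Ugt2b36: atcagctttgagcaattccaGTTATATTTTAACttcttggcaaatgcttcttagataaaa
Ugt2b37: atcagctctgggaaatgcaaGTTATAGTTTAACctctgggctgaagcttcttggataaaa
Ugt2b38: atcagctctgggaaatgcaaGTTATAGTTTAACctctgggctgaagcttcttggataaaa
Ugt3a1: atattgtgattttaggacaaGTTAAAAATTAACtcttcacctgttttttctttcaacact
They lie at chr5:86926553-86926612, chr5:87140362-87140421, chr5:86906971-86907030, chr5:87092580-87092639, chr5:87254827-87254886 and chr5:87424228-87424287 on the minus strand, and at chr5:87000770-87000829 and chr15:9279679-9279738 on the plus strand. Ugt2b37 and Ugt2b38 have the same 60 letters here, and Ugt2b5 shares 52 of them. A match is a description of the letters and not of a bound site. Shorter sets of letters known from transcription factor sites were searched on both strands as well. GTTAAT, which can lie inside the longer set but was in 0 of the 7 Ugt2b promoters, was found in 6 of 19 Ugt and 7 of 20 Sult promoters (7.10% of all promoters), AGGTCA in 7 and 3 (16.3%), GCGTG in 2 and 4 (32.4%) and TGACNNNGC in 0 and 0 (12.4%).

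Ugt2b5 (ENSMUSG00000054630) had the highest level of all 42 members. Its scaled FPKM were 722, 765 and 661 in the control mice, 424, 413 and 329 in the TAA mice and 625, 439 and 611 in the recovery mice. The 3 groups did not overlap as scaled here. The log2 difference in TAA against control was -0.89 (adjusted p 0.00103), under the fold limit, with -0.25 for FPKM as deposited and a flip to 0.52 after quantile normalization. Recovery against TAA gave 0.51 (adjusted p 0.0366), which flipped to -0.05 and -0.73 under the other scalings. Its near copy Ugt2b38, chosen after its values were seen, had 63.3, 73.6 and 65.5 in the control mice, 35.9, 38.5 and 28.8 in the TAA mice and 63.0, 38.6 and 55.5 in the recovery mice. The second recovery mouse lay just above the highest TAA mouse. Its log2 difference of -0.98 (adjusted p 0.000497) in TAA against control was under the fold limit, and passed it without the first TAA mouse at -1.01 (adjusted p 0.00227), without the second at -1.06 (adjusted p 0.00111) and without the first control mouse at -1.02 (adjusted p 0.00137).

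Ugt2b36 (ENSMUSG00000070704) and Ugt2b1 (ENSMUSG00000035836) followed Ugt2b5 in mean level among the Ugt2 and Ugt3a genes. Ugt2b1 had 389, 369 and 323 in the control mice, 67.3, 59.5 and 52.3 in the TAA mice and 261, 198 and 257 in the recovery mice. No group overlapped another. It fell in TAA against control, with a log2 difference of -2.59 (SE 0.12, adjusted p 7.23e-06), and was higher in recovery than in TAA by 1.996 (SE 0.14, adjusted p 3.38e-05). It was not called in recovery against control, at -0.60 (adjusted p 0.0561). Ugt2b36 had 372, 345 and 318 in the control mice, 159, 151 and 122 in the TAA mice and 335, 272 and 314 in the recovery mice. TAA mice were the lowest, and recovery and control mice overlapped. The log2 difference was -1.27 (SE 0.13, adjusted p 0.000145) in TAA against control and 1.10 (SE 0.13, adjusted p 0.000381) in recovery against TAA. The first call was lost under both other scalings, at -0.63 and -0.30. The second was lost under them too, at 0.53 and 0.25, and without the third TAA mouse, at 0.98 (adjusted p 0.00139).

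Ugt2a3 (ENSMUSG00000035780), chosen after its values were seen, was the expressed member of the Ugt2a family, beside Ugt2a1, at 0.0129 in the second control mouse and 0 elsewhere, and Ugt2a2, at 0 in all. Its scaled FPKM were 246, 206 and 211 in the control mice, 44.2, 43.2 and 35.8 in the TAA mice and 185, 158 and 147 in the recovery mice. No group overlapped another. The log2 difference was -2.43 (SE 0.12, adjusted p 7.34e-06) in TAA against control, 1.99 (SE 0.12, adjusted p 2.08e-05) in recovery against TAA and -0.44 (adjusted p 0.0843), not called, in recovery against control.

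Ugt2b37 (ENSMUSG00000057425) was the one Ugt gene called higher in TAA. It had 0.623, 1.501 and 0.892 in the control mice, 6.36, 6.15 and 3.77 in the TAA mice and 1.68, 0.379 and 1.09 in the recovery mice. TAA mice were above all others, and recovery and control mice overlapped. The log2 difference was 2.36 (SE 0.32, adjusted p 0.000652) in TAA against control and -2.42 (SE 0.45, adjusted p 0.00312) in recovery against TAA. Ugt2b37 and Ugt2b38, with the same 60 promoter letters and coding sequences 94.1% identical, thus had log2 differences of 2.36 and -0.98. Ugt2b34 and Ugt2b35, chosen after their values were seen, were not called. Ugt2b34 had 193, 163 and 161 in the control mice, 179.6, 204 and 152 in the TAA mice and 168, 146 and 159 in the recovery mice, with overlap of all groups. Ugt2b35 had 113, 125 and 94.7 in the control mice, 134, 164 and 128 in the TAA mice and 111, 89.7 and 114 in the recovery mice, with the TAA mice above all others. Their log2 differences in TAA against control were 0.04 and 0.36, and both were called higher after quantile normalization, at 1.01 and 1.12. For recovery against TAA, where they had -0.17 and -0.44, both were called lower after quantile normalization, at -1.02 and -1.11, and Ugt2b35 with FPKM as deposited, at -1.001. As shares of the Ugt sum, Ugt2b34 made up 5.86%, 13.9% and 6.45% and Ugt2b1 12.3%, 4.64% and 9.80% in the control, TAA and recovery group.

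The Ugt3a genes, at chr15:9276888-9370955, encode enzymes that use sugars other than glucuronic acid. Their coding sequences are 93.3% identical, but 0% of the windows of 150 bases are shared. Ugt3a2 (ENSMUSG00000049152) had 255, 252 and 236 in the control mice, 39.6, 30.6 and 32.9 in the TAA mice and 218, 203 and 227 in the recovery mice. No group overlapped another. It fell in TAA against control, at -2.85 (SE 0.11, adjusted p 3.57e-06), and was higher in recovery than in TAA, at 2.66 (SE 0.11, adjusted p 5.58e-06). Ugt3a1 (ENSMUSG00000072664) had 63.9, 47.7 and 49.5 in the control mice, 2.39, 1.66 and 2.70 in the TAA mice and 38.7, 38.8 and 42.3 in the recovery mice. Again no group overlapped another. Its log2 differences were -4.53 (SE 0.19, adjusted p 4.58e-06) and 4.11 (SE 0.17, adjusted p 5.03e-06), the largest of any Ugt gene called in these comparisons. Neither was called in recovery against control, at -0.42 (adjusted p 0.105) for Ugt3a1 and -0.20 (adjusted p 0.201) for Ugt3a2.

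Among the Sult1 genes, Sult1a1 (ENSMUSG00000030711, chr7:126672865-126676432, minus strand), the main phenol sulfotransferase of liver, had the highest level. Its scaled FPKM were 263, 256 and 215 in the control mice, 93.9, 117 and 83.1 in the TAA mice and 151, 191 and 185 in the recovery mice. No group overlapped another, and the recovery mice lay between the others. It fell in TAA against control, at -1.33 (SE 0.14, adjusted p 0.000223), a call that was lost under both other scalings, at -0.69 and -0.53. It was the 1 called member of that comparison that was not called in recovery against TAA, where the log2 difference of 0.85 (adjusted p 0.00221) was under the fold limit. Nor was it called in recovery against control, at -0.48 (adjusted p 0.0802). A log2 scale with control at 0% and TAA at 100% puts the recovery mean at 35.9%, and single recovery mice at 51.7%, 26.4% and 29.7%. This mean moved to 58.0% with FPKM as deposited and 72.5% after quantile normalization.

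Sult1b1, Sult1d1 and Sult1e1 lie next to the Ugt2 genes, at chr5:87513339-87591594. Sult1d1 (ENSMUSG00000029273), which acts on catecholamines, had 54.2, 49.8 and 50.8 in the control mice, 54.8, 62.7 and 39.2 in the TAA mice and 60.2, 78.3 and 68.9 in the recovery mice. Control and TAA mice overlapped, and recovery mice were above the control mice. It was not called in any comparison, and its log2 difference of -0.01 in TAA against control became 0.63 with FPKM as deposited and 0.54 after quantile normalization. The value of 0.42 in recovery against TAA flipped to -0.14 and -0.10. Sult1b1 (ENSMUSG00000029269), which acts on thyroid hormones, had 11.0, 6.44 and 6.09 in the control mice, 4.77, 5.11 and 3.56 in the TAA mice and 6.73, 8.72 and 7.51 in the recovery mice. TAA mice were the lowest, without overlap, but the log2 differences of -0.76 (adjusted p 0.0317) in TAA against control and 0.77 (adjusted p 0.00580) in recovery against TAA were under the fold limit.

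Sult1e1 (ENSMUSG00000029272), the estrogen sulfotransferase, was at or near 0 in the control mice. Its scaled FPKM were 0, 0.237 and 0 in the control mice, 0.993, 2.28 and 1.85 in the TAA mice and 0.116, 0.962 and 0.572 in the recovery mice. TAA mice were above all others, and recovery mice spread from the control range to just under the lowest TAA mouse. It rose in TAA against control, at 3.52 (SE 0.52, adjusted p 0.00101), a fold that the added 0.1 draws towards 0. It was lower in recovery than in TAA, at -1.68 (SE 0.57, adjusted p 0.0389). This call was lost without the first recovery mouse at -1.03 (adjusted p 0.0588), without the third at -1.84 (adjusted p 0.0561), without the second TAA mouse at -1.45 (adjusted p 0.115) and without the third at -1.59 (adjusted p 0.107). It was lost as well after quantile normalization at -1.12 (adjusted p 0.132), and without the filter, without the variance trend and in the fit on all 9 libraries. Recovery against control gave 1.84 (adjusted p 0.174), not called. Sult1c2, chosen after its values were seen, lay between 0.401 and 1.22 in all 9 libraries. Its log2 difference of 0.89 (adjusted p 0.0296) in recovery against TAA was called without the third recovery mouse at 1.15 (adjusted p 0.00892) and without the first TAA mouse at 1.08 (adjusted p 0.0247), and with 0.01 added in place of 0.1. Quantile normalization called it in both comparisons, at -1.50 (adjusted p 0.00308) in TAA against control and 1.501 (adjusted p 0.00412) in recovery against TAA.

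**Figure D3:**
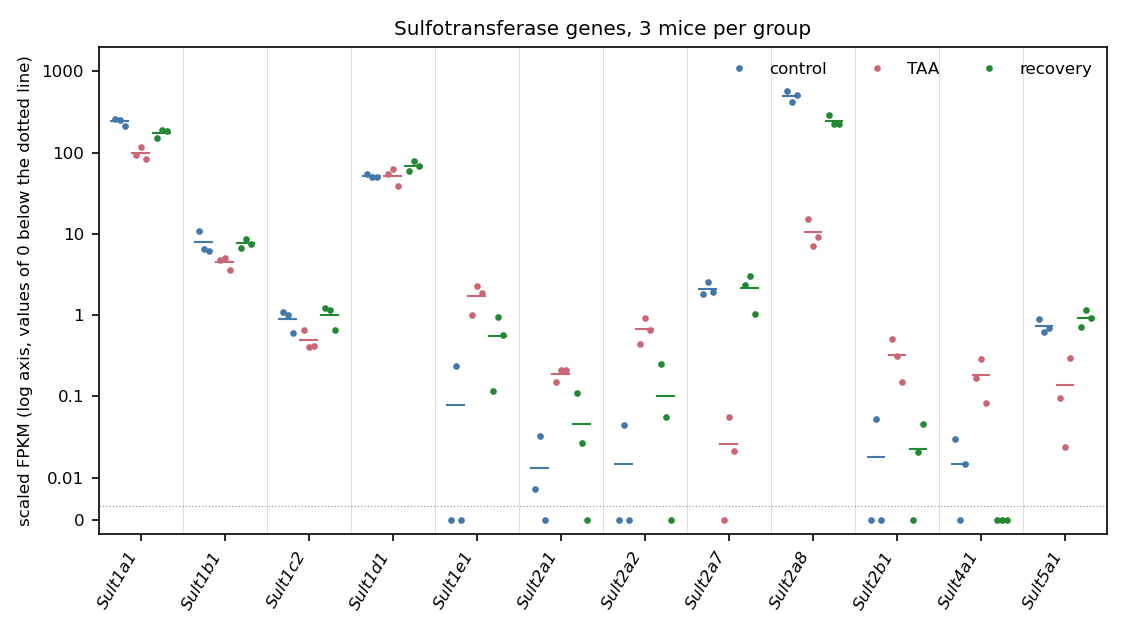
Scaled FPKM of 12 Sult genes on a log axis, with 1 dot per mouse, colours for the 3 groups, bars at the group means and values of 0 drawn under the dotted line. Sult2a8 lies at 423 to 570.4 in the control mice and 7.20 to 15.1 in the TAA mice, and Sult1e1, Sult2a1, Sult2a2 and Sult2b1 lie highest in the TAA mice, while the direction of Sult1d1 depends on the scaling.

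The 8 Sult2a genes lie at chr7:13623967-14494230 (GRCm38) and encode enzymes that sulfate hydroxysteroids and bile acids. Sult2a1 and Sult2a2 are known as genes of female mouse liver, and Sult2a8 as the main bile acid sulfotransferase of male mouse liver. Their changes went in opposite directions, so the first 60 coding bases (GENCODE M21) of the 4 tested members are shown to tell how alike they are. Capitals mark the 27 bases that are the same in all 4, 5′ to 3′.
Sult2a1: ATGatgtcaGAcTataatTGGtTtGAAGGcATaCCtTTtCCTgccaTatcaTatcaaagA
Sult2a2: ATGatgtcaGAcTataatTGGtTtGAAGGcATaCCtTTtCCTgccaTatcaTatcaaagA
Sult2a7: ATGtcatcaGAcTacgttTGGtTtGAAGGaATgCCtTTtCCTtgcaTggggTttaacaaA
Sult2a8: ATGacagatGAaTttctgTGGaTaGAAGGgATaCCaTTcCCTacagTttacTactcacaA
They lie at chr7:13837297-13837356, chr7:14492912-14492971 and chr7:14427860-14427919 on the minus strand and at chr7:13733559-13733618 on the plus strand. Sult2a1 and Sult2a2 have the same 60 bases and are 97.9% identical over 585 aligned coding bases. Of the windows of 150 bases, 6.31% in Sult2a1 and 20.6% in Sult2a2 occur in another member, and 0% in Sult2a7 and Sult2a8. The levels of Sult2a8 and Sult2a7 can thus be read separately, while some reads of Sult2a1 and Sult2a2 cannot be told apart.

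Sult2a8 (ENSMUSG00000030378) was the Sult gene with the highest level in the control mice. Its scaled FPKM were 570.4, 423 and 516 in the control mice, 15.1, 7.20 and 9.08 in the TAA mice and 291, 228 and 226 in the recovery mice. No group overlapped another, and the TAA mean was 2.08% of the control mean. It fell in TAA against control, at -5.63 (SE 0.26, adjusted p 6.35e-06), and was higher in recovery than in TAA, at 4.62 (SE 0.25, adjusted p 1.22e-05), the largest called differences of any member in the 2 comparisons. The recovery mean was 49.4% of the control mean. It was the 1 member called in recovery against control, at -1.02 (SE 0.15, adjusted p 0.0192), with a fold just over the limit. That call was lost without the first control mouse at -0.92 (adjusted p 0.0403), without the third control mouse at -0.99 (adjusted p 0.0629), without the second recovery mouse at -0.96 (adjusted p 0.0809) and without the third at -0.95 (adjusted p 0.0704). It was also lost with FPKM as deposited, at -0.94, and after quantile normalization, at -0.93. The direction held under each of these.

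Sult2a7 (ENSMUSG00000094156), a neighbour of Sult2a8 with far lower levels, had 1.81, 2.53 and 1.94 in the control mice, 0, 0.0560 and 0.0213 in the TAA mice and 2.35, 3.07 and 1.04 in the recovery mice. It was at or near 0 in the TAA mice, and recovery and control mice overlapped. The log2 difference was -4.13 (SE 0.24, adjusted p 1.48e-05) in TAA against control and 4.06 (SE 0.39, adjusted p 0.000122) in recovery against TAA. Since it passed the filter through 1 group in each, it had to differ to be tested. With levels at or near 0 its fold depends on the value added. Over the alternatives that tested it, the fold ran from -6.24 to -1.59 and from 1.56 to 6.17 in the 2 comparisons, with both calls kept. The filter at an FPKM of 1 left it untested in both.

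Sult2a1 (ENSMUSG00000078798) had 0.00733, 0.0324 and 0 in the control mice, 0.151, 0.209 and 0.213 in the TAA mice and 0.109, 0.0265 and 0 in the recovery mice. Sult2a2 (ENSMUSG00000070811) had 0, 0.0446 and 0 in the control mice, 0.440, 0.928 and 0.661 in the TAA mice and 0.2502, 0.0557 and 0 in the recovery mice. For both, TAA mice were above all others, and the first recovery mouse was the highest of its group. The log2 difference in TAA against control was 1.36 (SE 0.25, adjusted p 0.00260) for Sult2a1 and 2.73 (SE 0.31, adjusted p 0.000253) for Sult2a2. Recovery against TAA gave -1.07 (SE 0.33, adjusted p 0.0268) for Sult2a1 and -2.09 (SE 0.47, adjusted p 0.00717) for Sult2a2. The Sult2a1 call in recovery against TAA was lost without the second recovery mouse at -1.002 (adjusted p 0.0763), without the third at -0.83 (adjusted p 0.0770), without the second TAA mouse at -1.02 (adjusted p 0.0736) and without the third at -1.01 (adjusted p 0.0753). All of these levels were at most 0.928 scaled FPKM, where the added 0.1 sets much of the fold. Sult2a4, Sult2a5 and Sult2a6 were at 0 in the control mice and had at most 0.174 in any other mouse.

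Sult2b1 (ENSMUSG00000003271), which sulfates cholesterol, had 0, 0.0534 and 0 in the control mice, 0.508, 0.314 and 0.151 in the TAA mice and 0, 0.0207 and 0.0459 in the recovery mice. TAA mice were above all others. It rose in TAA against control, at 1.79 (SE 0.37, adjusted p 0.00504), and was lower in recovery than in TAA, at -1.72 (SE 0.36, adjusted p 0.00541). Both calls were lost with 1 added in place of 0.1, at 0.37 (adjusted p 0.0149) and -0.37 (adjusted p 0.0159), and with limma's treat (a test against a fold change of 2), at an adjusted p of 0.241 and 0.338. Quantile normalization took away the calls of Sult2b1 and Sult2a1 in TAA against control, at 0.89 and 0.42, and of Sult2b1, Sult2a1 and Sult2a2 in recovery against TAA, at -1.02, -0.37 and -1.42.

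In the smaller families, Sult5a1 (ENSMUSG00000000739, chr8:123140192-123158315, minus strand) had 0.897, 0.615 and 0.696 in the control mice, 0.0949, 0.0240 and 0.295 in the TAA mice and 0.714, 1.15 and 0.934 in the recovery mice. TAA mice were the lowest, without overlap. It fell in TAA against control, at -1.96 (SE 0.41, adjusted p 0.00513), and was higher in recovery than in TAA, at 2.26 (SE 0.41, adjusted p 0.00278). Both calls were lost with 1 added in place of 0.1, at -0.61 (adjusted p 0.00219) and 0.77 (adjusted p 0.00120), and with treat, at an adjusted p of 0.182 and 0.0920. Sult4a1 (ENSMUSG00000018865, chr15:84076097-84105754, minus strand), best known from brain, had 0.0298, 0 and 0.0146 in the control mice, 0.170, 0.292 and 0.0840 in the TAA mice and 0, 0 and 0 in the recovery mice. TAA mice were above all others, though the highest had 0.292 scaled FPKM. It was called higher in TAA than in control, at 1.24 (SE 0.33, adjusted p 0.0144), and lower in recovery than in TAA, where no fold is given because all recovery libraries are listed at 0. Both calls were lost after quantile normalization, the first at 0.33. Sult3a1, a gene of female mouse liver at chr10:33766424-33879532 with Sult3a2, had 0, 0 and 0.0898 in the control mice, 0, 0 and 0 in the TAA mice and 0.0554, 0.107 and 0.0475 in the recovery mice, and was not tested. Sult6b1 and Sult6b2 had at most 0.0229 in any mouse.

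The order of levels among the Sult genes differed between groups. Sult2a8 made up 62.0% of the summed Sult level in the control mice, 6.19% in the TAA mice and 49.1% in the recovery mice. Sult1a1 made up 30.2%, 57.9% and 34.8%, and Sult1d1 6.36%, 30.9% and 13.7%, in the same order. In TAA, Sult1a1 was thus the highest Sult gene and Sult1d1 the second, and Sult1a1 and Sult1d1 did not overlap there. All of these are shares of the group means.

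Recovery levels can be placed between those of control and TAA in the 17 members called in TAA against control, on a log2 scale with control at 0% and TAA at 100%. This is a description, since the groups compared share libraries. Sult1e1 lay at 52.2%, with single recovery mice at 15.002%, 80.2% and 61.5%, followed by Sult1a1 at 35.9%. Their order turned under the other scalings, where Sult1e1 lay at 44.8% with FPKM as deposited and 62.0% after quantile normalization, under the values of Sult1a1 given above. Ugt1a1, Sult2a2, Ugt2b1, Sult2a1, Sult2a8 and Ugt2a3 lay between 18.0% and 23.4%, and Ugt2b36 at 13.5%. Of these 7, Sult2a1 moved most, to 17.0% with FPKM as deposited and 38.7% after quantile normalization. The 3 recovery mice lay close together for Sult2a8 (13.8%, 20.1% and 20.3%) and far apart for Ugt1a1 (36.0%, -3.07% and 37.4%), Sult2a1 (65.5%, 12.5% and -12.4%) and Sult2a2 (59.8%, 16.9% and -6.50%), of which the last 2 had their highest value in the first recovery mouse. Ugt3a1, Ugt3a2, Sult2b1 and Sult2a7 lay between 1.66% and 9.18%. Sult5a1 and Ugt1a9 lay beyond the control mean, at -15.2% (-23.2% with FPKM as deposited and -6.48% after quantile normalization) and -27.3% (-66.5% with FPKM as deposited and -47.1% after quantile normalization). For Ugt2b37 the single mice lay at 32.4%, -47.8% and 8.04%, on both sides of the control mean, and for Sult4a1 the value is set by the added 0.1.

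**Figure D4:**
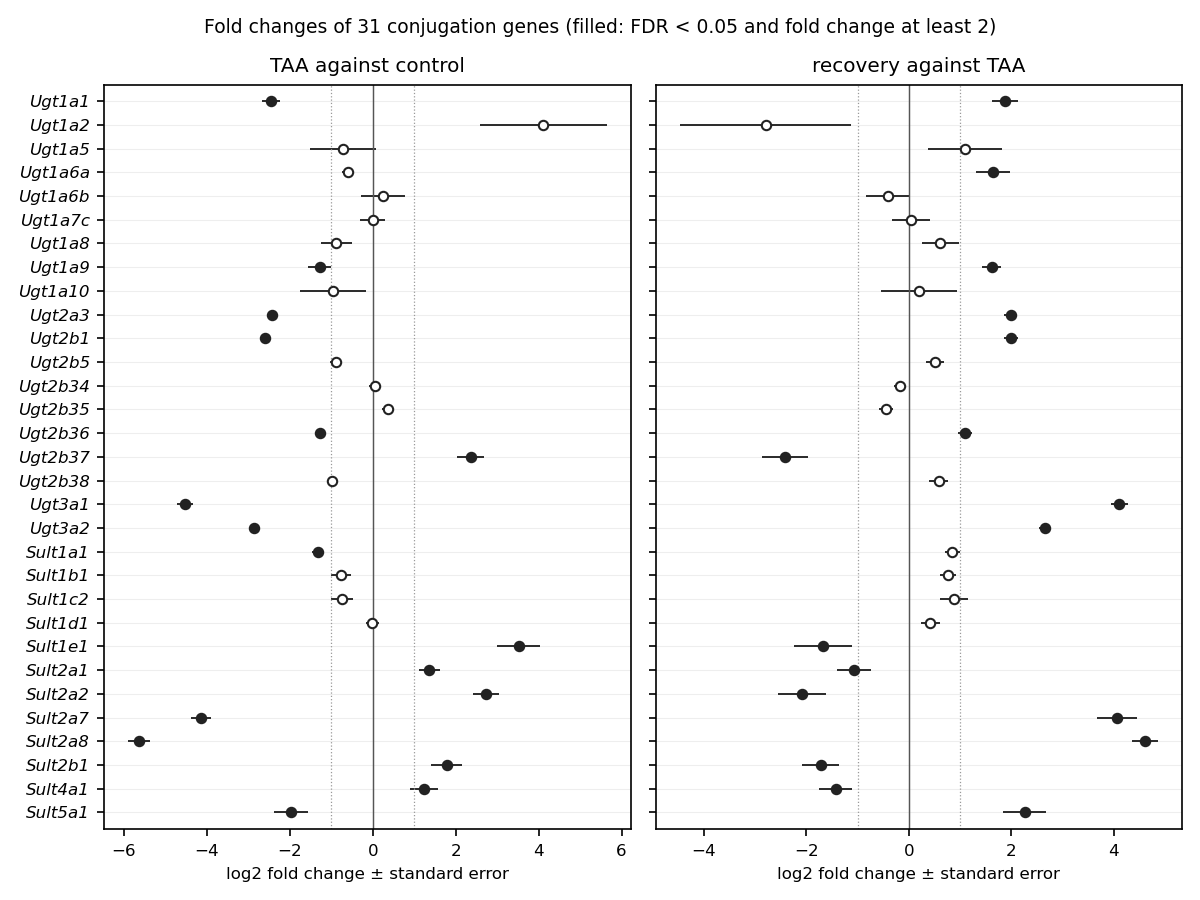
Log2 differences with their standard errors for the 31 members tested, in TAA against control on one panel and recovery against TAA on the other, with filled points for called members (the recovery libraries of Sult4a1 are at 0, so its point there depends on the added 0.1). The values run from -5.63 (Sult2a8) to 4.11 (Ugt1a2, not called) in TAA against control and from -2.80 to 4.62 in recovery against TAA, and those of Ugt2b5 and Sult1d1 flip under another scaling in both.

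Other genes of the 2 pathways were taken from lists, and limma's calls on them are given in the same way. UDP-glucuronic acid is made from glucose phosphate by way of UDP-glucose, and 3 of the 5 genes listed for its supply were called in TAA against control. Ugdh, the dehydrogenase that makes UDP-glucuronic acid, had 71.9, 76.2 and 43.0 in the control mice, 162, 191 and 161 in the TAA mice and 59.2, 52.1 and 75.7 in the recovery mice. TAA mice were above all others, and the log2 difference was 1.46 (SE 0.21, adjusted p 0.000934). The phosphoglucomutase gene Pgm2 rose as well, at 1.85 (SE 0.16, adjusted p 8.69e-05), and Pgm1 fell, at -1.09 (SE 0.084, adjusted p 4.73e-05), a call lost under both other scalings. These 2 symbols are given as in the table, and which enzyme each stands for depends on the annotation release, as they have changed places. Of the 7 PAPS supply genes in the table, 1 was called, Papss1, which encodes a PAPS synthase, with 3.15, 2.58 and 2.23 in the control mice, 7.68, 6.28 and 6.27 in the TAA mice and 2.22, 2.09 and 2.496 in the recovery mice and a log2 difference of 1.32 (SE 0.16, adjusted p 0.000338). In recovery against TAA, Ugdh (-1.47), Pgm2 (-1.59) and Papss1 (-1.53) were called lower, under all 3 scalings. As scaled here the 2 supply lists did not move as a whole. Each had 2 genes higher and 3 lower in TAA against control at an unadjusted p under 0.05. The TAA sum was 0.933 times the control sum for UDP-glucuronic acid (1.45 and 1.63 under the other scalings) and 0.888 times for PAPS (1.38 and 1.17). At the same p limit FPKM as deposited gave 3 higher and 1 lower for UDP-glucuronic acid and 5 and 0 for PAPS. Quantile normalization gave 2 and 1 for each. In recovery against TAA the UDP-glucuronic acid counts were 2 and 2 as scaled here, 1 and 4 as deposited and 1 and 3 after quantile normalization. Those for PAPS were 1 and 1, 0 and 7, and 0 and 2.

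The list of deconjugation genes held a glucuronidase, sulfatases and esterases, and of 5 tested 2 were called in TAA against control. Ces3a, a carboxylesterase gene, fell by 2.77 (SE 0.26, adjusted p 0.000105) on the log2 scale, and Arsa, which encodes arylsulfatase A, fell by 1.37 (SE 0.10, adjusted p 3.83e-05), a call lost with FPKM as deposited at -0.73. Gusb, the glucuronidase gene, Arsb and Abhd10 of this list were not called, at 0.05, 0.13 and 0.14. The list thus did not fall as a whole. With FPKM as deposited 3 of the 5 were higher and 2 lower at an unadjusted p under 0.05. Of the 4 transporters that export conjugates, 3 were called. Abcc4, which exports to blood, had 2.46, 2.31 and 1.30 in the control mice, 9.71, 16.5 and 15.7 in the TAA mice and 4.52, 2.46 and 3.83 in the recovery mice. It rose, at 2.74 (SE 0.29, adjusted p 0.000180). Abcg2, which exports to bile, and Abcc3, which exports to blood, fell, at -1.51 and -1.43, and both calls were lost with FPKM as deposited, at -0.87 and -0.80, and that of Abcc3 after quantile normalization too, at -0.84. In recovery against TAA the log2 differences were 2.41 for Ces3a, 1.03 for Arsa, -1.93 for Abcc4, 1.34 for Abcg2 and 1.21 for Abcc3, all called. Of these 5 calls, those of Ces3a and Abcc4 were kept under both other scalings. In recovery against control limma called 0 of the genes of these 4 lists. At an unadjusted p under 0.05 there were 2 lower for UDP-glucuronic acid supply, 2 lower for PAPS supply, 1 higher and 1 lower for deconjugation and 1 higher and 2 lower for efflux.

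Ugt and Sult genes are known targets of nuclear receptors and other liver transcription factors, and 20 such regulators were listed. In TAA against control 6 of the 20 were called lower. The largest was Nr1i3, which encodes the receptor CAR, with 76.5, 76.1 and 73.5 in the control mice, 11.1, 10.4 and 12.8 in the TAA mice and 54.5, 40.8 and 46.0 in the recovery mice. TAA mice were the lowest, without overlap, and the log2 difference was -2.72 (SE 0.096, adjusted p 2.69e-06). Ppara, Cebpa and Rxra followed, at -1.48, -1.48 and -1.25. Of the 6 calls, that of Nr1i3 was the 1 kept under both other scalings. Nfe2l2, which encodes NRF2, went the other way, at 0.93 (SE 0.083, adjusted p 8.93e-05), under the fold limit. At an unadjusted p under 0.05, 1 of the 20 was higher and 15 were lower. FPKM as deposited called 1 of the 20 higher, and so did quantile normalization. In recovery against TAA 4 were called higher, Nr1i3 at 2.03, Bcl6 at 1.77, Hnf4a at 1.07 and Nr1h4 at 1.02, and the first 2 were kept under both other scalings. For recovery against control limma called 0 of 20, with 3 higher and 9 lower at an unadjusted p under 0.05. Genes that respond to such factors moved in both directions. Of 12 tested, 6 were called higher and 3 lower in TAA against control, and 8 of these 9 calls were kept with FPKM as deposited and 9 after quantile normalization. Gsta1, a target of NRF2, had 3.55, 0.732 and 0.296 in the control mice, 179, 276 and 193 in the TAA mice and 3.10, 3.77 and 5.13 in the recovery mice, and a log2 difference of 7.64 (SE 0.71, adjusted p 0.000103). Cyp1a1, a target of the AH receptor, differed by 5.89 (SE 0.33, adjusted p 1.32e-05), and the PPARA targets Cyp4a14 and Cyp4a10 by -5.24 and -4.71. Cyp1a2 and Tiparp of the same list were not called, at -0.37 (adjusted p 0.0285) and 0.31 (adjusted p 0.0907). Recovery against TAA had 3 called higher and 4 lower, among them Cyp1a1 at -5.80, Gsta1 at -5.72, Cyp4a14 at 5.005 and Cyp4a10 at 4.59. Cyp2b10, a target of CAR, was called higher in TAA against control, at 3.94 (SE 0.48, adjusted p 0.000399), where Nr1i3 was lower. It was not called in recovery against TAA, at -1.46 (adjusted p 0.0683). Of this list it was the 1 called in recovery against control, at 2.47 (SE 0.42, adjusted p 0.0303).

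**Figure D5:**
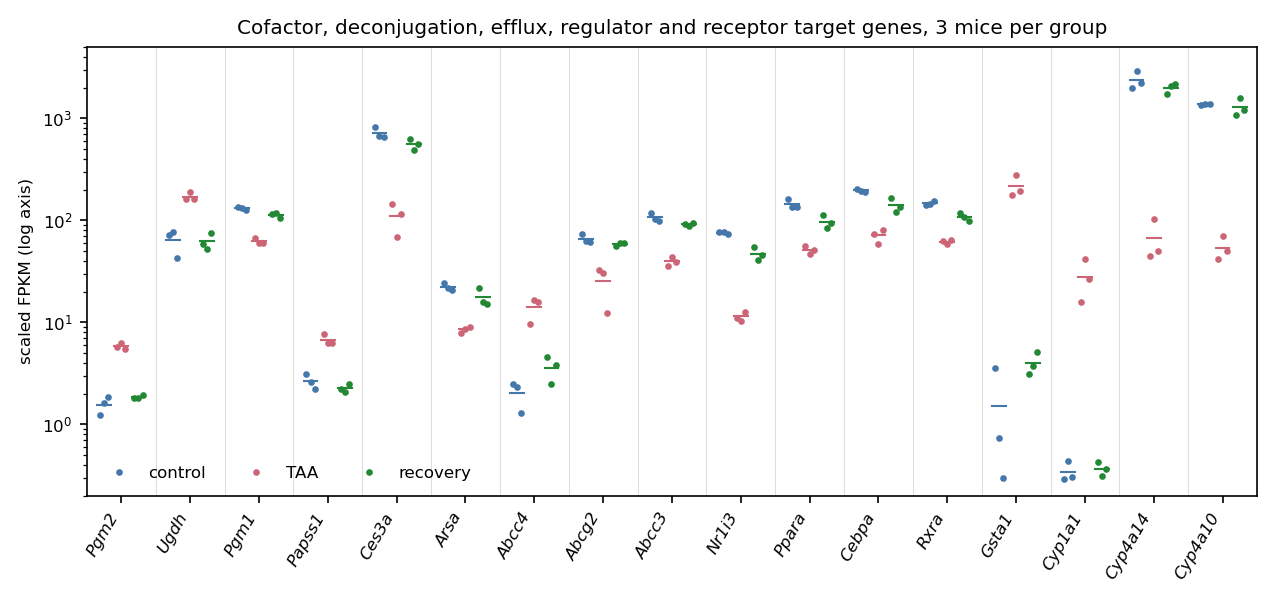
Scaled FPKM of 17 genes around the conjugation enzymes (donor supply, deconjugation, efflux, regulators and receptor targets) on a log axis, with 1 dot per mouse, colours for the 3 groups and bars at the group means. Gsta1 and Cyp1a1 lie highest in the TAA mice and Cyp4a14 and Cyp4a10 lowest, with log2 differences in TAA against control of 7.64, 5.89, -5.24 and -4.71.

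Since Sult2a1 and Sult2a2 are genes of female mouse liver and all 9 mice were male, lists of genes known for a sex difference in liver were read alongside. Scaled FPKM of the 8 male-biased genes added up to 13180.0, 15042 and 15892 in the control mice, 1987, 1365 and 1466 in the TAA mice and 11761, 8576 and 12276 in the recovery mice, with Mup20 the most abundant. All 8 were called lower in TAA against control, with Mup7, Elovl3, Slco1a1 and Hsd3b5 at -10.87, -8.42, -7.17 and -6.56, and all 8 were called higher in recovery against TAA. The 10 female-biased genes in the table added up to 21.1, 22.1 and 20.1 in the control mice, 175, 223 and 171 in the TAA mice and 37.3, 13.5 and 18.2 in the recovery mice. Cyp2a4 was the most abundant of them in the TAA mice, with a mean of 157. In the control and recovery mice it was Acot3, with means of 18.7 and 20.5 beside 1.55 and 1.63 for Cyp2a4. Of 9 tested, 8 were called higher in TAA against control, with Cyp3a41a, Cyp2a4 and Cyp2b9 at 7.02, 6.61 and 4.64, and 1 lower, Acot3 at -3.06. In recovery against TAA 1 of the 9 was called higher and 8 lower. TAA mice stood apart from both other groups in each sum, under all 3 scalings. Quantile normalization left 7 of the 8 male-biased and 6 of the 9 female-biased calls in TAA against control, and 7 of 8 and 7 of 9 in recovery against TAA. In recovery against control Elovl3 was called higher, at 1.27, and Hsd3b5 lower, at -2.03. The part of these genes' regulators in the Sult changes was not tested.

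Conjugation is not even across the liver lobule, so genes of its zones were read too. Of 10 pericentral genes, 5 were called lower in TAA against control, with Slc1a2, Oat, Cyp2e1 and Glul at -8.62, -6.17, -3.65 and -3.37, each under all 3 scalings. Lect2 and Axin2 of this list went the other way, at 0.97 (adjusted p 0.000922) and 0.52 (adjusted p 0.00723), under the fold limit, and FPKM as deposited called 2 of the 10 higher and quantile normalization 1. Of 8 periportal genes, 3 were called lower, Pck1 at -2.53, Hal at -2.06 and Gls2 at -1.37, and Gls2 lost its call under both other scalings. Recovery against TAA called 6 pericentral genes higher and 1 lower, and 3 periportal genes higher. FPKM as deposited kept 6 and 2 of these calls and quantile normalization 6 and 1. In recovery against control Oat was called lower, at -1.44, and limma called 0 of the 8 periportal genes, with 2 higher and 2 lower at an unadjusted p under 0.05.

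Marker genes of liver cell types were read as well, and some of these lists moved while others did not. Scaled FPKM of the 8 hepatocyte markers, with Alb the most abundant, added up to 40603, 43381 and 39296 in the control mice, 29709, 26611 and 22562 in the TAA mice and 48228, 50258 and 50665 in the recovery mice. The TAA mean was 0.640 times the control mean as scaled here and 0.993 times with FPKM as deposited, and it flipped to 1.07 times after quantile normalization. Of the 8 markers 5 were called lower in TAA against control. FPKM as deposited kept 1 of these calls and quantile normalization 0, where Ttr was called higher, at 1.15, and at an unadjusted p under 0.05 limma had 2 markers lower and 2 higher. Hnf4a and Cps1 of this list are also on the lists of regulators and periportal genes. The 6 cholangiocyte markers, with Spp1 the most abundant, added up to 19.2, 15.8 and 21.4 in the control mice, 448, 306 and 299 in the TAA mice and 28.9, 30.3 and 39.3 in the recovery mice, and 6 of 6 were called higher. The 6 markers of stellate cells and myofibroblasts added up to 13.8, 14.0 and 13.4 in the control mice, 221, 154 and 220.5 in the TAA mice and 12.3, 16.6 and 20.01 in the recovery mice, and again 6 of 6 were called higher. By group mean Col3a1 was the most abundant of them in the TAA mice, and Lrat in the control and recovery mice. Of the markers of macrophages 2 of 5 were called higher, of lymphocytes 1 of 4, and limma called 0 of 5 endothelial markers, with 1 lower at an unadjusted p under 0.05. With FPKM as deposited 4 macrophage and 3 lymphocyte markers were called higher, and after quantile normalization 2 and 0. Both scalings called 0 endothelial markers. At an unadjusted p under 0.05, 4 endothelial markers were higher and 0 lower with FPKM as deposited, and 0 and 0 after quantile normalization. In recovery against TAA 5 of 8 hepatocyte markers were called higher, and 5 of 6 cholangiocyte and 5 of 6 stellate cell markers lower. FPKM as deposited kept 3 of the 5 hepatocyte calls and quantile normalization 0, with 4 higher and 2 lower at an unadjusted p under 0.05, and the ratio of the summed hepatocyte markers went from 1.89 to 1.28 and 0.992. Both other scalings kept the calls of the other 2 lists. In recovery against control Epcam, of the cholangiocyte list, was called higher, at 1.65. The part of cell composition in the Ugt and Sult changes was not tested.

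Markers of tissues outside the liver set some libraries apart. The 6 skeletal muscle markers added up to 36.8 in the third TAA mouse, with Acta1 the most abundant there. They added up to at most 0.426 in any other mouse, with Mylpf the most abundant. The 6 adrenal cortex markers added up to 0.406, 0.997 and 0.621 in the control mice, 3.38, 4.32 and 6.40 in the TAA mice and 0.537, 0.527 and 3.71 in the recovery mice. By group mean Cyp21a1 was the most abundant of them in the TAA mice, and Star in the control and recovery mice. In the TAA mice Cyp21a1 alone had 3.07, 4.09 and 5.99, while Star had a mean of 0.306 beside 0.548 in the control mice and Cyp11b1 was at 0. Cyp11a1 was at 0 in every mouse except the third recovery mouse, where all 6 were above 0. Of the 5 kidney markers 3 were at 0 in all libraries. The lists of small intestine and pancreas held 4 genes each, and in TAA against control Fabp2 was called lower, at -1.92, and Vil1 higher, at 2.63. Without the third TAA and the third recovery mouse, an alternative chosen after seeing the data, 11 members were called higher in recovery against TAA and 4 lower, in place of 11 and 6. The calls lost were those of Ugt2b36 at 0.96 (adjusted p 0.00548), Sult1e1 at -1.75 (adjusted p 0.131) and Sult2a1 at -0.78 (adjusted p 0.155), and Sult1c2 was gained at 1.07 (adjusted p 0.0307).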

How the data were processed

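Liver RNA of 9 mice was sequenced by the authors, who mapped the reads to mm10 (GRCm38) with HISAT2 2.2.1, counted them per gene with featureCounts 1.5.0-p3 and deposited FPKM with 1 column per mouse. Samples were grouped by the condition in their labels. Libraries were scaled by median-of-ratios factors. A pseudocount of 0.1 was added before the log2, and limma 3.58.1 (R 4.3.3; lmFit, then eBayes with a mean-variance trend) was run on the 6 libraries of each comparison. A gene was tested where its FPKM averaged 0.1 or more over them, and adjusted p are Benjamini-Hochberg values over every gene tested. Calls needed an FDR under 0.05 and a fold change of at least 2. Tables, sequences and figures were made with Python 3.11.15, pandas 2.3.3, numpy 2.4.6, Biopython 1.88 and matplotlib 3.10.9. The members and the lists of other genes were chosen with earlier results of these data known. The steps were tested on simulated data.

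Named members are the 3 with the highest mean level in each of Ugt1a, the other Ugt families, Sult1, Sult2 and Sult3 to Sult6, in each comparison the 5 called members that rose most and the 5 that fell most, each member called in recovery against control, and members called in TAA against control but not in recovery against TAA. Of other lists up to 4 called genes are named, largest first. Other genes that are named were chosen after their values were seen.

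The depth estimate rests on low FPKM values times transcript length, in genes with 1 annotated transcript. Per library 53.7% to 61.3% of these values were whole numbers of fragments within 0.08, where 16% would be by chance. Exact counts were thus not available, no counting intervals were computed, and the spread between the 3 mice of a group is the error of each value. Genes at the same locus in GENCODE M21 made up 92.4% of the table (20200 genes). Members were compared by coding-sequence identity, because no protein table was used here. Alternatives to the pseudocount, the filter, the scaling, the libraries fitted, the variance trend, the test, the replicate block and the set of mice were tried. The small RNA libraries of the study were not analysed.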

Additional observations from a re-analysis of the deposited data

How the results depend on the processing

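Each count and summed ratio was recomputed with 1 choice changed at a time, and the cause was not tested where a value moved. Members called higher in TAA against control went from 6 to 2 with a pseudocount of 1, 2 with a filter at an FPKM of 1 (fewer genes tested) and 3 with limma's treat at a fold limit of 2, and those called lower from 11 to 7 with treat. Over all genes the calls higher went from 2451 to 890, 1353 and 937 in the same order. Those lower went from 1130 to 499 with treat. In recovery against TAA the count lower went from 6 to 1 with a pseudocount of 1, 2 with the filter at 1, 3 after quantile normalization and 0 with treat (7 at an unadjusted p under 0.05 in the reported limma fit), and the count higher from 11 to 6 with treat. Over all genes the calls lower went from 2068 to 711, 1158, 1329 and 683 in the same order. Those higher went from 1002 to 400 with treat. The calls lost with treat were those of Ugt1a9, Ugt2b36, Sult1a1, Sult2a1, Sult2b1, Sult4a1 and Sult5a1 in TAA against control, and of Ugt1a1, Ugt1a6a, Ugt1a9, Ugt2b36, Ugt2b37, Sult1e1, Sult2a1, Sult2a2, Sult2b1, Sult4a1 and Sult5a1 in recovery against TAA, and a pseudocount of 1 took away those of Sult2a1, Sult2a2, Sult2b1, Sult4a1 and Sult5a1 in both and of Sult1e1 in recovery against TAA. In recovery against control the 1 member called lower went to 0 with FPKM as deposited, after quantile normalization and with treat. Over all genes the calls lower there went from 68 to 54, 66 and 0 in the same order. Leaving out 1 mouse at a time gave 6 to 6 higher and 11 to 13 lower in TAA against control, 10 to 12 higher and 4 to 6 lower in recovery against TAA, and 0 to 0 higher and 0 to 1 lower in recovery against control. With FPKM as deposited and after quantile normalization, the ratio of summed levels was 0.681 and 0.882 for Ugt and 0.324 and 0.356 for Sult in TAA against control, and 1.29 and 1.02 for Ugt and 2.03 and 1.96 for Sult in recovery against TAA. Without the most abundant member, the Sult ratio was 0.514 in TAA against control, 1.63 in recovery against TAA and 0.836 in recovery against control. With the replicate block the counts higher and lower were 7 and 11, 12 and 5, and 0 and 1 in the 3 comparisons (Ugt1a2 was gained in the first at an adjusted p of 0.0329, and Ugt1a5 gained at 0.0123 and Sult2a1 lost at 0.0525 in the second, and no other call of a member changed). Whether mice with the same number were paired was checked by the correlation of libraries after removal of group means. It ran from -0.0705 to 0.125 in the 9 pairs of the same number and from -0.113 to 0.133 in the others, and 0 of 9 libraries were closest to their own number in both other groups, so no pairing was used. Without the Ugt1a locus, an alternative chosen after seeing the data, the counts were 6 and 9, 8 and 6, and 0 and 1. For counts and ratios 27 values were labelled as moved and 101 as the same, by limits that are not given here. For single members 1414 values stayed on their side of the threshold (among them uncalled values that changed direction), 69 lost a call, 34 gained one and 0 called values changed sign. Of all calls in TAA against control 68.4% were higher as reported, 91.4% with FPKM as deposited and 53.3% after quantile normalization, and of the members' calls 35.3%, 46.7% and 33.3%.

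With 3 mice per group and no read counts, values near 0 (Sult2a1, Sult2a2, Sult2a7, Sult2b1, Sult4a1, Sult5a1 and Sult1e1) rest on few fragments, and their folds move with the pseudocount. The factors between groups differ by a log2 shift of 0.64, and quantile normalization moved some members by more (Ugt2b5 in TAA against control from -0.89 to 0.52), so changes of such sizes depend on the scaling. Reads in the exons common to the Ugt1a genes, and in near copies such as Ugt2b5 and Ugt2b38, limit what single genes show. Recovery mice were older than control mice, and whole liver mixes cell types.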
